A study of Mus musculus with 6 samples.

Results

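Genes for the proteins that hold neighbouring cells together at tight and adherens junctions were examined in lung endothelial cells of mouse pups with and without endothelial Smad4. The 32 genes were listed by name, with earlier results of these data known. The rule that picks their rows uses no measured value. Each was found by its symbol among the 24951 genes of the deposited counts. They were split by role into 23 genes of endothelial or broad use and 9 genes typical of epithelium. RNA was sequenced from cells taken at postnatal day 5 from digested lungs with beads carrying an antibody to CD31. The control group was 3 libraries from Smad4 f/f pups without Cre, which the genotype label calls wildtype. The mutant group was 3 libraries from Smad4 f/f;Cdh5-CreERT2 pups, called Smad4 iECKO mutant. Both groups thus carry the floxed alleles, and no group has Cre with intact Smad4. The labels give neither the dose nor the day of tamoxifen. A pair of the junction genes is tied to the design itself. The promoter of Cdh5 drives the Cre, and Pecam1 encodes CD31, the protein used to pull down the cells. In such bulk libraries fewer cells of a type and less RNA per cell cannot be told apart.

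At an adherens junction, cadherins of facing cells bind each other outside the membrane and hold catenins inside it, which link them to actin. At a tight junction, claudins and occludin seal the gap between cells, junctional adhesion molecules bind across it, and scaffold proteins of the ZO family gather the membrane proteins through PDZ domains. Lung capillaries form a tight barrier of this kind, in which VE-cadherin and claudin-5 are the leading endothelial members, while the alveolar epithelium beside them is sealed by claudin-18 and other epithelial claudins.

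The coding ends of the junctional adhesion molecules and claudins are shown because this end of the protein is the part that PDZ scaffolds hold, and because the junctional adhesion molecule genes stood apart from each other in the data. Each line is the last 30 bases of the coding sequence of the principal transcript, stop codon included, on GRCm38 with the strand given, and the capitals mark the last 3 codons before the stop. The sequences are from GENCODE M21.
F11r (chr1:171463065-171463094, plus strand): ttcaaacagacctcgtcgTTCCTGGTGtga
Jam2 (chr16:84822790-84822819, plus strand): ttcaagcacacaaaatccTTTATAATTtaa
Jam3 (chr9:27098366-27098395, minus strand): ttcagacacaaatcgtccTTTGTTATCtga
Cldn5 (chr16:18777623-18777652, plus strand): ggcgattacgacaagaagAACTATGTCtaa
Cldn18 (chr9:99692723-99692752, minus strand): tctcatcctaccaagtatGACTATGTGtag
Cldn12 (chr5:5507691-5507720, minus strand): gacattccagtagtctcaCACAGCACTtaa

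Of the 8 claudin genes, 7 ended in TAT or TAC followed by GTC or GTG, and Cldn12 did not. The junctional adhesion molecule genes were alike in length but not in sequence. F11r, Jam2 and Jam3 had coding lengths of 900, 894 and 930 bases without the stop. Aligned over their coding sequence, Jam2 and Jam3 were 54.4% identical with a longest shared run of 11 bases, F11r and Jam2 55.8%, and F11r and Jam3 52.9%. No 50-base window of a transcript was shared among these 3 genes.

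Reads assigned to genes came to 14093564 to 21113926 per library. In these libraries 3 counts, taken as the limit for a gene at 0, correspond to 0.140 to 0.214 CPM (read counts scaled to a common library size, with TMM factors). Smad4, the targeted gene, was lower in every mutant library, with 188, 177 and 181 CPM in the controls against 88.8, 72.9 and 94.2 (log2 fold change -1.09, SE 0.10, adjusted p = 0.000604). As for the endothelial label, 12 endothelial markers summed to 8101 to 9025 CPM per library. Of these, 1 was called higher (Robo4) and 3 lower (Tek, Flt1 and Sox17). That is 33.3% of the list, beside 3.27% of all tested genes. Markers of other cells were also present. Per library, 8 pan-epithelial markers summed to 281 to 454 CPM, 8 alveolar type 2 markers to 1856 to 3959, 8 alveolar type 1 markers to 1513 to 2517, and 6 airway markers to 441 to 571. Prom1 was the one of these epithelial markers that was called, and it was higher (limma-voom did not call it). Of 36 mesothelial, fibroblast, pericyte and smooth muscle, platelet and leukocyte markers, edgeR called 0, with 3 at an unadjusted p under 0.05. DESeq2 and limma-voom each called 1, the pericyte marker Rgs5, which was higher.

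By level, the endothelial junction genes stood highest, with the alveolar claudin Cldn18 in the middle of the order. CPM was divided by exon length in kilobases (CPM per kb), which allows genes to be compared. In the controls Cldn5, the main endothelial claudin, stood at 523 ± 39.2 CPM per kb and Cdh5, which encodes VE-cadherin, at 520 ± 26.7 (SD, n = 3 each). Their ranges overlapped, and both lay above every other gene of the list. Pecam1 at 252 ± 14.7 and Ctnnb1, the gene of beta-catenin, at 251 ± 2.35 CPM per kb came next and also overlapped each other. Below them came Rasip1 (176 ± 11.1) and Esam (166 ± 7.43), again with overlapping ranges, and Tjp1, which encodes ZO-1, at 143 ± 2.89. Cldn18, the claudin of alveolar epithelium, came 12th of 32 at 86.8 ± 31.1 CPM per kb. Its range overlapped those of F11r above it (107 ± 3.61) and Ptprm below it (86.4 ± 2.00). Jam3 was 26th in the controls at 6.24 ± 0.436 CPM per kb. Its range overlapped that of Cldn12 above it and almost touched that of Pard3 below it. Cdh13, the gene of T-cadherin, which is held by a lipid anchor and has no catenin-binding tail, was 31st at 2.12 ± 0.469, and Cldn1 was last at 0.326 ± 0.0870. Lengths are of all annotated exons together, so a gene with many unused exons is placed too low.

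**Figure D1:**
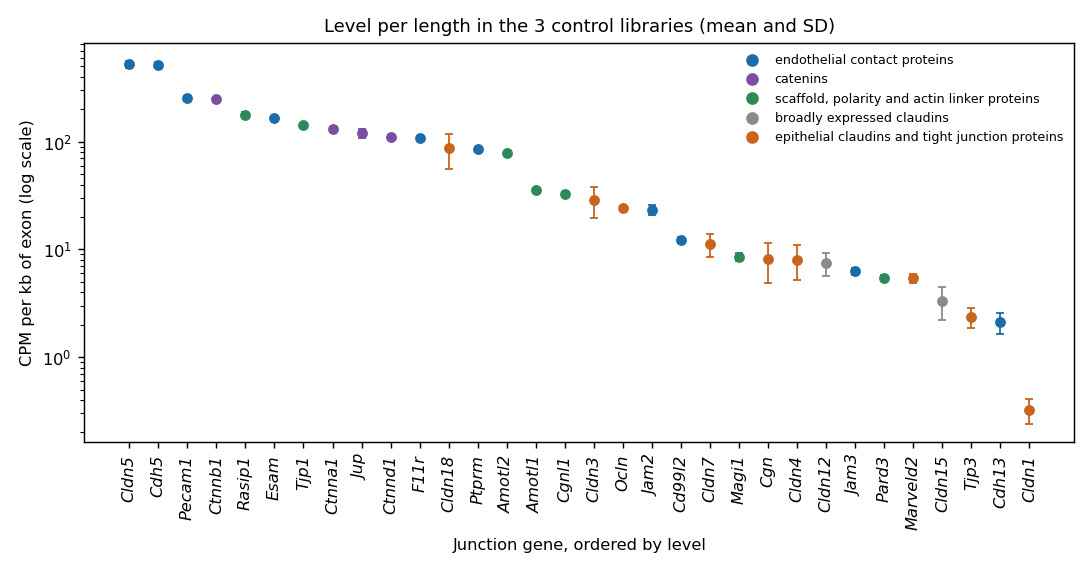
Level of each junction gene in the control libraries, in CPM per kb of exon on a log axis, ordered from high to low (point: mean; bar: SD; n = 3). Cldn5 (523) and Cdh5 (520) stand highest, Cldn18 (86.8) is the highest of the epithelial group in orange, and Cldn1 (0.326) is lowest.

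Most junction genes did not differ between mutant and control cells by the test, and the ones that did were higher. All 32 were abundant enough to be tested. Of them 2 were called higher, Jam3 and Cgnl1, 0 were called lower and 30 did not pass, at an adjusted p under 0.05 in edgeR's quasi-likelihood test. Among all 14934 tested genes the call rate was 3.27% (1.93% higher and 1.34% lower), against 6.25% of the junction genes, a count too small to set the list apart. At an unadjusted p under 0.05 there were 5 higher and 2 lower members, with F11r, Magi1 and Amotl2 added to the higher ones and Jam2 and Jup being the lower ones. Those 7 of 32 stand beside 14% of all tested genes at that level. DESeq2 called 3 higher (F11r was the third) and 0 lower, and limma-voom 1 higher (Jam3) and 0 lower. The median log2 fold change of the 32 was 0.03, beside -0.0024 over all tested genes. The 23 endothelial and broadly used genes held both calls and had a median of 0.06. The 9 epithelial genes held 0 calls and had a median of -0.11.

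**Figure D2:**
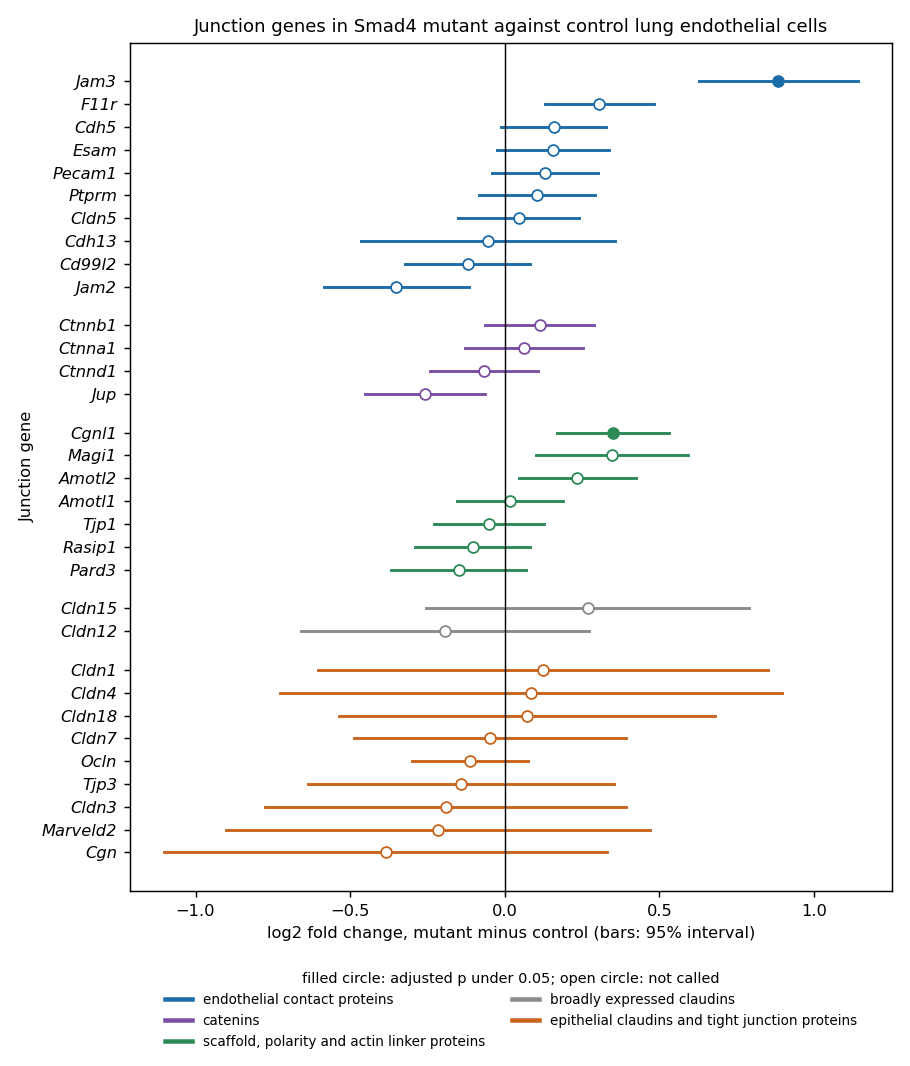
Log2 fold change of each junction gene, mutant minus control, with its 95% interval (bar), from the fit of 3 mutant and 3 control libraries. The filled points are Jam3 (0.88) and Cgnl1 (0.35). Except for that of Ocln, the intervals of the epithelial genes at the bottom are wider than those of most others.

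The proteins that reach across the contact were led by Jam3. Jam3 encodes JAM-C, an immunoglobulin-type adhesion molecule that, with JAM-B, also binds passing leukocytes. Control replicates 1, 2 and 3 had 18.6, 20.0 and 21.4 CPM of it, and mutant replicates 1, 2 and 3 had 38.0, 39.7 and 33.0 CPM. The groups did not overlap, and the lowest mutant library was well above the highest control. The means were 20.0 ± 1.40 and 36.9 ± 3.51 CPM (SD, n = 3 each), 1.85-fold higher in the mutants (log2 fold change 0.88, SE 0.12, 95% interval 0.63 to 1.14, adjusted p = 0.00274). The call was kept in each of the 14 alternative fits, with an adjusted p of at most 0.0225, without mutant replicate 2. Jam3 (ENSMUSG00000031990.15) lies on the minus strand of chromosome 9. An antisense gene, Gm48796, lies inside it on the plus strand and shares 29.3% of its 50-base windows. Gm48796 is not among the counted genes, and the use of strand in counting is not given in the sources used here, so reads of the pair cannot be told apart.

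JAM-C has also been described outside blood endothelium, in lymphatic vessels, mural cells and human platelets among others. Whether mouse platelets make it is not shown by these data. The 6 platelet markers summed to 62.8, 49.6 and 72.3 CPM in the controls, replicates in order, and to 51.9, 75.8 and 69.9 in the mutants, with 4 of 6 above 0 in log2 fold change and a median of 0.41. The 8 pericyte and smooth muscle markers summed to 394, 389.6 and 263 CPM and to 384, 496 and 398, with 7 of 8 above 0 and a median of 0.23. The 8 fibroblast markers summed to 1573, 1672 and 1076 CPM and to 1642, 1908 and 1260, also with 7 of 8 above 0, and a median of 0.18. In each of these sums the groups overlapped. Mutant replicate 2, which had the highest Jam3, also had the highest of each of these 3 sums, and control replicate 3, with the highest Jam3 of the controls, was the lowest in mural and fibroblast markers and the highest control in platelet markers.

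A single pericyte marker stood apart. Rgs5, a regulator of G-protein signalling that marks pericytes, had 44.0, 41.7 and 29.1 CPM in the controls and 69.9, 60.5 and 107 in the mutants, without overlap (log2 fold change 1.05, SE 0.25, adjusted p = 0.0776). DESeq2 called it (adjusted p = 3.82e-05), as did limma-voom (adjusted p = 0.0447). Pdgfrb, a receptor gene of the same marker list, had 55.6, 72.1 and 29.9 CPM in the controls and 57.2, 81.4 and 54.3 in the mutants, which overlapped (adjusted p = 0.746). The 6 lymphatic markers summed to 1295, 1123 and 1377 CPM in the controls and to 1532, 1506 and 1484 in the mutants, without overlap. Lyve1, a hyaluronan receptor, made up most of that sum and was called higher (log2 fold change 0.44, adjusted p = 0.0166). Of the 5 lymphatic markers tested, 2 were above 0 in log2 fold change and 3 below, with a median of -0.13. Prox1, the defining transcription factor of lymphatic cells, had 58.0, 60.7 and 71.7 CPM in the controls and 70.5, 50.5 and 52.8 in the mutants (adjusted p = 0.735). Ccl21a had 0 counts in every library. The counting method is not given, so whether reads of Ccl21a could be assigned to it is not known. The part of any of these cells in the Jam3 difference was not tested.

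**Figure D3:**
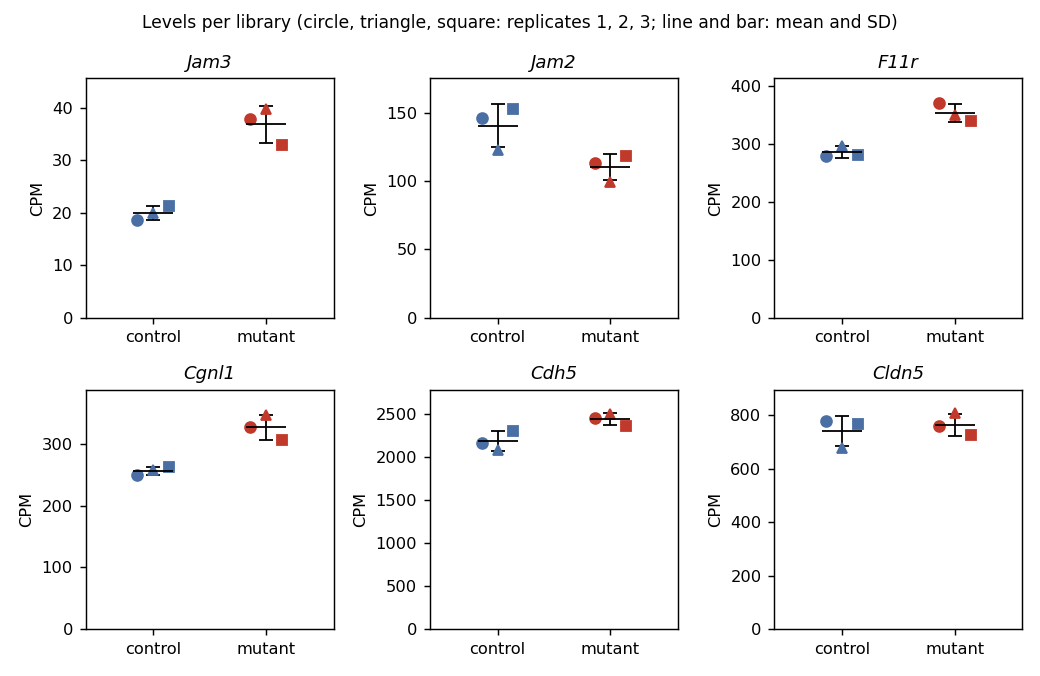
CPM of 6 junction genes in each library (points; replicates 1, 2 and 3 as circle, triangle and square), with the mean and SD of each group (line and bar; n = 3). Jam3, F11r and Cgnl1 have each mutant library above each control, Jam2 has each mutant below, Cdh5 is separated by a small margin and Cldn5 overlaps.

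The other junctional adhesion molecule genes did not pass. F11r encodes JAM-A, found in endothelium, epithelium and platelets. It stood at 279.7, 297 and 281 CPM in the controls and at 371, 349.8 and 339.8 CPM in the mutants, a difference without overlap (log2 fold change 0.31, SE 0.08, adjusted p = 0.0740). DESeq2 called it higher (adjusted p = 0.0244), and it was not called in the other 13 alternative fits. Jam2, which encodes JAM-B of endothelium, the binding partner of JAM-C, stood at 147, 123 and 153 CPM in the controls and at 113, 99.6 and 118 in the mutants. Each mutant library was below each control (log2 fold change -0.35, SE 0.11, adjusted p = 0.132). In 11.6% of all tested genes every mutant library was above every control, and in 9.04% every mutant was below, so a lack of overlap alone was common. Of the 32 junction genes, every mutant library was above every control in 9 and below in 3.

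Within a library the balance of the family can be read without scaling between libraries. The ratio of Jam3 to Jam2, each per kb, was 0.239, 0.308 and 0.264 in the controls, replicates in order, and 0.633, 0.753 and 0.527 in the mutants. JAM-B transcript was thus the more abundant of the pair in every library, by a smaller margin in the mutants, and the groups did not overlap. The ratio of Jam3 to F11r went from 0.0582 ± 0.00438 to 0.0868 ± 0.00703 (SD, n = 3 each), so JAM-A remained the most abundant transcript of the family in both groups. These ratios rest on the same Jam3 counts as the call and are given as a description.

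The leading endothelial adhesion genes were close between groups. Cdh5 stood at 2161, 2087 and 2307 CPM in the controls and at 2457, 2496 and 2361 in the mutants. The groups were separated by a small margin, and the difference did not pass (log2 fold change 0.16, SE 0.08, adjusted p = 0.395, 95% interval -0.01 to 0.33). Cldn5 stood at 779, 677 and 768 CPM in the controls and at 760.4, 808 and 725 in the mutants. These overlapped, and its 95% interval was -0.15 to 0.24 (adjusted p = 0.866). Pecam1, the gene of the selection antigen, stood at 1571, 1478 and 1661 CPM and at 1706, 1744 and 1707 CPM (log2 fold change 0.13, adjusted p = 0.502). Esam, an endothelial adhesion molecule of tight junctions, went from 477 ± 21.3 to 531 ± 25.2 CPM (SD, n = 3 each; adjusted p = 0.437). For Cdh5, Pecam1 and Esam each mutant library was above each control, with means 1.12-fold, 1.09-fold and 1.12-fold apart.

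Among the remaining contact genes, Ptprm, a receptor phosphatase that binds its like on the next cell, stood at 763 ± 17.6 and 820 ± 66.3 CPM (adjusted p = 0.641). Cd99l2, which helps leukocytes cross the endothelium, stood at 60.2 ± 4.10 and 55.4 ± 0.391 CPM (adjusted p = 0.611). Each mutant library was below each control by a small margin. Cdh13 stood at 29.8, 19.7 and 22.2 CPM in the controls and at 27.7, 19.3 and 22.1 in the mutants, with replicate 1 the highest and replicate 2 the lowest of each group (adjusted p = 0.927). Replicate 1 was also the male library of each group by Xist. Cdh13 was the most variable of the 10 contact genes within the groups, with a coefficient of variation of 22.1% in controls and 18.7% in mutants.

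Of the 4 catenin genes, 0 were called by edgeR, DESeq2 or limma-voom, and 1 (Jup) had an unadjusted p under 0.05. Ctnnb1 stood at 1305, 1293 and 1317 CPM in the controls and at 1517, 1375 and 1341 in the mutants (log2 fold change 0.11, adjusted p = 0.580). Ctnna1, which encodes the alpha-catenin that reaches actin, had a log2 fold change of 0.06 (adjusted p = 0.795). Ctnnd1, the gene of p120-catenin, which keeps cadherins at the surface, had one of -0.07 (adjusted p = 0.754). Jup encodes plakoglobin, a close relative of beta-catenin that can take its place on VE-cadherin. It stood at 811, 693 and 805 CPM in the controls and at 627, 654 and 652 in the mutants. Each mutant library was below each control (log2 fold change -0.26, SE 0.09, adjusted p = 0.190). A read-through gene model, Gm28635, covers 56.7% of the 50-base windows of Ctnnd1 and is not counted on its own, and the overlapping Ulk4 on the other strand shares 12.3% of those of Ctnnb1.

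The scaffold, polarity and actin linker genes held the other call. Cgnl1 encodes paracingulin, which sits at both kinds of junction. Its CPM values were 249.8, 258 and 262 in the controls, replicates in order, and 328, 347 and 306 in the mutants. Each mutant library was above each control, with means of 257 ± 6.24 and 327 ± 20.7 CPM (SD, n = 3 each), 1.27-fold higher (log2 fold change 0.35, SE 0.08, adjusted p = 0.0476). The size of the difference was steady, with log2 fold changes of 0.31 to 0.40 over 14 alternatives, but the call was at the edge of the threshold and was kept in 3 of them. Leaving out any one of the 6 libraries ended it, with an adjusted p from 0.0580 without mutant replicate 3 to 0.184 without mutant replicate 2. The ratio of Cgnl1 to Tjp1 per kb was 0.228 ± 0.00804 in controls and 0.302 ± 0.0325 in mutants, without overlap. It rests on the same Cgnl1 counts as the call and is given as a description.

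The promoter of Cgnl1 is shown as that of the called scaffold gene, beside that of F11r, which DESeq2 also called. These are the 250 bases before the start in RefSeq on GRCm38.p6, where 25 of the 32 genes had an entry and Jam3 was among the others. Capitals mark letters of SMAD-type motifs searched on both strands, CAGAC (reverse GTCTG) and GGCGCC.
Cgnl1 (chr9:71771603-71771852, minus strand): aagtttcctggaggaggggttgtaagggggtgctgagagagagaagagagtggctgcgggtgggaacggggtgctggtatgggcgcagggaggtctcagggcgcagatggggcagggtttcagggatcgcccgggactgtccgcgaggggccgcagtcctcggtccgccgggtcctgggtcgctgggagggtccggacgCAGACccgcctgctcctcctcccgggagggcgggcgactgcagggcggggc
F11r (chr1:171437311-171437560, plus strand): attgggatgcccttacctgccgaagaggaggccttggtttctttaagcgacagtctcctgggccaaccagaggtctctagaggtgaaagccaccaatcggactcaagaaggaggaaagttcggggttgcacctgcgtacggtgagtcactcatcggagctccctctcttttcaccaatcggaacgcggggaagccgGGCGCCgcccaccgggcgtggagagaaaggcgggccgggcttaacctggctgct

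CAGAC was found in 42.2% of all 32851 promoters of that length and in 41.7% of the 36 promoters of junction genes. GGCGCC was found in 9.59% of all and in 13.9% of the junction gene promoters, those of F11r, Ctnnb1, Ctnnd1, Pard3 and Ptprm. GTCTAGAC, the full palindrome, was in 0.167% of all promoters and in 0 of the 36. A match is a run of letters and not a measured binding site.

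Of the other 6 genes of this group, edgeR, DESeq2 and limma-voom called 0, and Magi1 and Amotl2 had an unadjusted p under 0.05. Magi1, a scaffold with several PDZ domains, stood at 92.8, 96.1 and 81.5 CPM in the controls and at 117, 128 and 99.6 in the mutants (log2 fold change 0.35, SE 0.11, adjusted p = 0.155). Amotl2, an angiomotin that ties VE-cadherin to actin, stood at 481, 518 and 480.3 CPM and at 590.4, 613 and 537 (log2 fold change 0.23, SE 0.08, adjusted p = 0.229). In both genes each mutant library was above each control. Its relative Amotl1 stood at 361 ± 13.2 and 366 ± 8.62 CPM, with a log2 fold change of 0.02 (95% interval -0.15 to 0.19). Tjp1 stood at 1121 ± 22.5 and 1081 ± 70.0 CPM (adjusted p = 0.825). Rasip1, a Rap1 and Ras effector needed for vessel lumens, stood at 565 ± 35.5 and 526 ± 19.8 CPM (adjusted p = 0.632), and Pard3, the polarity protein that binds the tails of junctional adhesion molecules, at 79.5 ± 4.82 and 71.7 ± 6.45 CPM (adjusted p = 0.550). Rasip1 shares 17.7% of its 50-base windows with the overlapping Izumo1 and 11.4% with the antisense A030001D20Rik.

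Where an endothelial or broadly used gene did not pass, the data still bounded its difference. Of the 21 such genes, 17 had a 95% interval that lay inside a 1.5-fold difference either way. Those intervals take each gene on its own. The median SE of the 23 genes was 0.08 on the log2 scale, against 0.26 for the 9 epithelial genes, of which 2 had an interval inside 1.5-fold.

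The broadly expressed claudins were low and variable. Cldn12 stood at 24.9, 40.2 and 30.4 CPM in the controls and at 34.8, 24.0 and 24.3 in the mutants (log2 fold change -0.19, adjusted p = 0.732). Cldn15, a claudin that forms pores for sodium, stood at 5.04, 9.76 and 6.46 CPM and at 7.47, 8.79 and 9.07 (log2 fold change 0.27, adjusted p = 0.668). Both overlapped between groups. Cldn5 was 73.1 ± 21.6 times Cldn12 per kb in controls and 84.9 ± 18.0 times in mutants, so the endothelial claudin stood far above it in both.

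The epithelial junction genes varied widely between libraries of one genotype, and none passed between genotypes. Of the 9, edgeR, DESeq2 and limma-voom called 0, and 0 had an unadjusted p under 0.05. Their log2 fold changes ran from -0.38 for Cgn, the gene of cingulin, to 0.12 for Cldn1, with adjusted p-values of 0.603 to 0.941. Cldn18 had 539, 354 and 267 CPM in the controls, replicates in order, and 475, 399 and 345 in the mutants. The range of the controls enclosed that of the mutants (log2 fold change 0.07, SE 0.26, 95% interval -0.54 to 0.68). Cldn3, a sealing claudin of airway and alveolar cells, stood at 47.0, 38.0 and 24.2 CPM and at 29.2, 39.2 and 27.3. Cldn7 stood at 26.0, 23.1 and 16.0 CPM and at 24.2, 21.7 and 17.1, and Cldn4 at 14.5, 19.9 and 9.5 and at 17.0, 20.1 and 9.27. In these 4 claudins the lowest library of each group was replicate 3.

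That order was shared by most of the group. Of the 9 genes, 6 were lowest in replicate 3 of both groups (Cldn1, Cldn3, Cldn4, Cldn7, Cldn18 and Cgn), against 2 of the 23 others. Replicate 3 of one group is not taken as matched to replicate 3 of the other. Among the controls alone, replicate 3 was lowest for 8 of the 9 and for 3 of the 23. Among the mutants alone, it was lowest for 7 of the 9 but also for 14 of the 23. The epithelial marker lists were also lowest in replicate 3 among the controls, but not all of them among the mutants. The 8 pan-epithelial markers summed to 449, 454 and 281 CPM in the controls and to 420.2, 427 and 321 in the mutants, and the 8 alveolar type 1 markers to 2517, 1939 and 1513 and to 1969, 2077 and 1610.1. The 8 alveolar type 2 markers summed to 3959, 3234 and 1856 CPM in the controls and to 2658, 2861 and 2671 in the mutants. The 9 junction genes summed to 817, 634 and 468 CPM and to 712, 635 and 550.2. The 6 airway markers summed to 517, 549 and 473 CPM in the controls and to 441, 489 and 571 in the mutants, so replicate 3 was the lowest control but the highest mutant. The share of carried-over cells in any one gene was not tested.

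**Figure D4:**
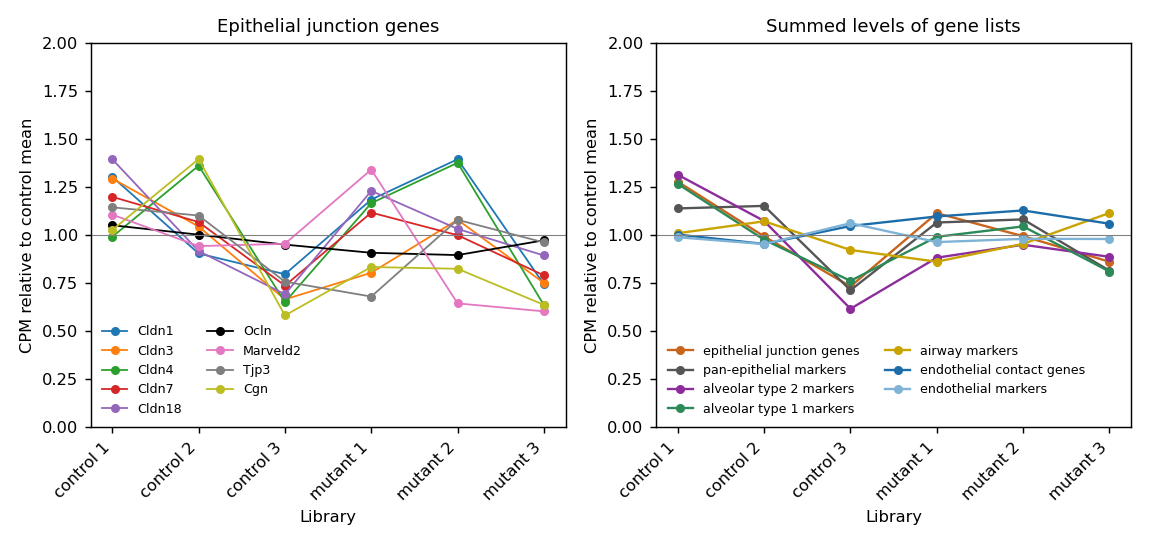
CPM in each library relative to the control mean, for the 9 epithelial junction genes (left; Ocln in black) and for summed gene lists (right). Most epithelial junction genes and the epithelial marker sums are lowest in control replicate 3 among the controls, while endothelial contact genes and endothelial markers are not.

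Occludin was an exception within the epithelial group. Ocln stood at 108, 103 and 97.3 CPM in the controls and at 92.9, 91.7 and 99.6 in the mutants. Its highest library was 1.17 times its lowest, against 2.02 times for Cldn18 and 2.40 times for Cgn, and its coefficient of variation in controls was 5.04% against 35.9% for Cldn18. Its spread was like that of the endothelial-side genes, whose median ratio of highest to lowest was 1.20. The log2 fold change was -0.11 with a 95% interval of -0.30 to 0.07 (adjusted p = 0.603). Marveld2, which encodes tricellulin, found where the corners of several cells meet, differed among the mutants instead, at 24.3, 11.7 and 10.9 CPM, beside 20.1, 17.1 and 17.3 in the controls. Tjp3, the gene of ZO-3, stood at 8.73 ± 1.85 and 7.91 ± 1.79 CPM (adjusted p = 0.829), and Cgn at 49.2 ± 20.0 and 37.6 ± 5.47 CPM (adjusted p = 0.637). Cgn shares 16.4% of its 50-base windows with the pseudogene BC021767, which had 31 counts in all.

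Pairs of an endothelial and an epithelial gene were also compared within each library. Per kb, Cldn5 was 4.55, 6.02 and 9.04 times Cldn18 in the controls, replicates in order, and 5.03, 6.38 and 6.61 times in the mutants. VE-cadherin transcript was 10.1, 14.8 and 21.9 times that of E-cadherin, encoded by Cdh1, in the controls and 15.8, 17.0 and 19.5 times in the mutants. Both ratios overlapped between groups and were highest in replicate 3 of each.

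Other genes of the junction were taken from lists of 25 adherens junction genes and 28 tight junction and polarity genes. Of the adherens junction list 24 were tested, with 2 called higher and 0 lower, and of the tight junction list 25 were tested, with 0 higher and 1 lower. These calls stand beside the 3.27% of all tested genes. At an unadjusted p under 0.05 the lists held 8 of 24 and 4 of 25 genes, beside 14% of all tested genes. DESeq2 called 3 higher and 0 lower in the first list and 0 higher and 2 lower in the second, adding Arvcf and Marveld1, and limma-voom called Cdh2 and Cldn11. The medians were -0.04 and -0.08 on the log2 scale. Nectin2, an adhesion molecule that begins adherens junctions, went from 98.7 ± 3.62 to 140.3 ± 21.1 CPM (SD, n = 3 each; log2 fold change 0.51, SE 0.11, adjusted p = 0.0366). Cdh2, which encodes N-cadherin, the cadherin of contacts between endothelium and pericytes, was at 10.6, 10.1 and 10.7 CPM in the controls and at 15.2, 15.9 and 15.0 in the mutants (log2 fold change 0.55, SE 0.13, adjusted p = 0.0471). Cldn11, a claudin of myelin and testis, was low throughout and fell from 2.35 ± 0.415 to 0.946 ± 0.235 CPM (log2 fold change -1.31, SE 0.30, adjusted p = 0.0417).

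These calls were also near the threshold. Leaving out any one library ended the calls of Cdh2 and Cldn11, and that of Nectin2 was kept only without mutant replicate 3. Pericytes make N-cadherin too. Their marker sums overlapped between groups and Rgs5 did not, as given beside Jam3, and their part in the Cdh2 difference was not tested. Per kb, Cdh5 was 400.5 ± 13.4 times Cdh2 in controls and 305 ± 5.28 times in mutants. That ratio rests on the same Cdh2 counts as the call and is given as a description. The next in the tight junction list was Marveld1, a relative of occludin, at 125 ± 11.5 and 98.5 ± 2.28 CPM, which did not pass in edgeR (adjusted p = 0.0740).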

How the data were processed

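The authors deposited raw read counts per gene symbol, per library and as one table, and 0 values differed between these forms. Per the submitters' processing notes the build was mm10 and DESeq2 was used, with no version or role. The sources used here name no aligner, counter, annotation or strand setting. Unassigned reads (53.9% to 58.2% without a feature) were left out. In R 4.3.3, edgeR 4.0.16 kept 14934 genes by filterByExpr, scaled them by TMM and tested mutant against control with robust quasi-likelihood F tests, two-sided, adjusted by Benjamini-Hochberg over all genes, with calls at 0.05. The 95% intervals used the fit's degrees of freedom. DESeq2 1.42.0, limma 3.58.1, other factors and filters, a replicate block, sex read from Xist and leaving out each library were alternatives. Exon lengths are from GENCODE M21. The code was tested on simulated data. The junction genes, the 2 other junction lists and the 11 marker lists were chosen with earlier results of these data known. All 32 members, Smad4, called or leading genes of the other junction lists and abundant or absent markers could be named. Replicate libraries differed by more than sampling noise (chi-square per degree of freedom at least 12.3). Counting precision covers counting error only. Cd99 of the adherens junction list had no row.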

Additional observations from a re-analysis of the deposited data

How the results depend on the processing

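The Jam3 increase and the Smad4 decrease were called in each of 14 alternative fits, and 0 epithelial junction genes were called in any of them. The count of 2 called junction genes, both in the endothelial-side group, became 1 with limma-voom, with DESeq2 size factors, with the stricter low-count filter, with the replicate block, with sex as a covariate and without any one library (lowest 1, highest 1). In each case it was Cgnl1 that was lost, with log2 fold changes of 0.31 to 0.40 over all alternatives. The count of called other junction genes went from 3 to 5 in DESeq2, to 1 with sex as a covariate and to 0 to 1 without one library. Over all tested genes 488 calls became 754 in DESeq2 and 211 (without mutant replicate 2) to 428 without one library, with 293 without control replicate 2 and 325 without control replicate 3. Deviations of same-numbered samples had correlations of -0.015, 0.016 and 0.20 for numbers 1, 2 and 3. Those of differently numbered samples ran from -0.17 (control 3 with mutant 2) to 0.14 (control 1 with mutant 2). The numbers are not taken as pairs. With the block 466 genes were called. Each group had 1 male library, replicate 1, and 2 female libraries by Xist. Other scalings moved the median of all genes by less than 0.1 on the log2 scale. Cldn1 and Cldn11 rest on few counts per library, which limits their precision.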
